A study of Saccharomyces cerevisiae with 26 samples.

Results

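The members described here were the masked A-rich runs at the ends of the nuclear chromosomes of budding yeast (Saccharomyces cerevisiae). A run is a stretch of adjacent genome positions on 1 strand that the study removed from its RNA 3′ end tracks, because a stretch of As in a transcript can bind the oligo(dT) primer and imitate a poly(A) tail. A run was a member if it started within 20 kb of either end of its chromosome. This rule found 10939 of the 221698 nuclear runs and of 223663 runs in all. The other 210759 nuclear runs, farther inside the same chromosomes, served as the background and are called the rest.

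The study sequenced RNA 3′ ends of 26 libraries, 12 of them from cells given rapamycin for 15 min and 14 from cells without it. Its strains, Mex67-AA and Nab2-AA, carry the export factor Mex67p or the poly(A)-binding protein Nab2p fused to an FRB tag, together with tor1-1, a disrupted fpr1 and RPL13 fused to FKBP12, so that rapamycin draws the tagged protein out of the nucleus. Total RNA and RNA labeled with 4-thiouracil for 2 min were sequenced without (pA+) and with (pA+,-) a prior in vitro polyadenylation, and 2 libraries were mock purifications from unlabeled cells. The list of runs was made from the sacCer3 sequence alone and was the same for all libraries, so no strain or treatment enters the values below and no run has a signal or a replicate.

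A yeast telomere is a tract of irregular repeats in which the strand running 5′ to 3′ toward the end is rich in G and T and its partner is rich in C and A. Inside this tract lies an X element at all ends, and many ends carry in addition a Y′ element, which encodes a helicase. The adjoining subtelomeric DNA holds gene families shared between ends, such as COS, PAU and the MAL loci, and is silenced over part of its length. At each end the strand whose 5′ to 3′ direction runs to the telomere is called telomere-directed, and the other centromere-directed. Transcripts of the first read toward the chromosome end, and those of the second read toward the centromere.

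The longest member runs are shown first, as the extreme cases of a masked stretch. In all sequences below, read 5′ to 3′ on the masked strand from assembly R64, which has the sacCer3 sequence, capitals mark masked positions. Masked positions lie before or within the As that follow them. The lines give the chromosome end (chromosome number and left or right arm), the run and its orientation.
VIIIR, chrVIII:549763-549818, minus strand, centromere-directed: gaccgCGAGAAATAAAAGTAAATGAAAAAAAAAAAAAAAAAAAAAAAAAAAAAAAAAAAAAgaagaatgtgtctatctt
IR, chrI:223128-223180, minus strand, centromere-directed: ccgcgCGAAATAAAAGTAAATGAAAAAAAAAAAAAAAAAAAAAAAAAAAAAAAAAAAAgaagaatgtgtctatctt
VL, chrV:19513-19555, plus strand, centromere-directed: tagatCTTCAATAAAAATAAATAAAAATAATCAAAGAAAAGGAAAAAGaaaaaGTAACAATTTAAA
XIVR, chrXIV:772602-772644, plus strand, telomere-directed: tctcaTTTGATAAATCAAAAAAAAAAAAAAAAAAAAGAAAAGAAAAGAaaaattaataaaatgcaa
VIIIR, chrVIII:554041-554081, plus strand, telomere-directed: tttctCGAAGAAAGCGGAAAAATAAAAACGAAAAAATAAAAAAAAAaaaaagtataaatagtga

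These 5 runs were 56, 53, 43, 43 and 41 bp long, and all lay between genes. The first 2 belonged to near-identical stretches at the ends VIIIR and IR, on the former between YHR214C-B and YHR214C-D and on the latter between YAR068W and PHO11, an acid phosphatase gene. The run at VL lay between DLD3 and DSF1, that at XIVR between YNR071C and HXT17, a transporter gene, and the fifth between PHO12 and IMD2, an IMP dehydrogenase gene. Such lengths were rare. The median member was 2 bp long, 46.1% of members were single positions, and 449 (4.10%) reached 10 bp, against 4.41% in the rest. By strand, 294 (4.95%) of the telomere-directed and 155 (3.10%) of the centromere-directed members reached 10 bp. The telomere-directed strands held 5940 members or 9.28 per kb, the centromere-directed strands 4999 or 7.81 per kb, and the rest 9.22 per kb.

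Runs were shared between ends, in the Y′ element and elsewhere. A context of 10 bases before and 25 bases after a run, identical in sequence and masking at another end, was found for 39.6% of the members, and 12.2% recurred at 10 or more ends. Some of the contexts were present at all 17 ends with a Y′ element, in 19 copies each, and 3 of them are shown for the end IIL.
IIL, chrII:5019-5028, minus strand, telomere-directed, outside coding sequence: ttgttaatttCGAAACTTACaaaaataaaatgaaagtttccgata
IIL, chrII:4594-4601, plus strand, centromere-directed, antisense to YBL111C: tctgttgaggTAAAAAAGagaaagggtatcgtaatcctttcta
IIL, chrII:954-961, minus strand, telomere-directed, sense in YBL113C: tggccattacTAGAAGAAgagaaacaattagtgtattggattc

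The 17 Y′ ends are therefore not independent of each other, and the tests below, which treat the 16 chromosomes as units, measure how even a difference is over chromosomes and do not measure an experimental error.

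Within 20 kb of the ends, fewer positions were masked than in the rest of the same chromosomes. Counted over all kinds of position together, the shortfall lay on the centromere-directed strand. Over both strands the masked share was 2.39% ± 0.194 (SD over 16 chromosomes) near the ends and 2.67% ± 0.0670 in the rest. The centromere-directed strand had 2.11% ± 0.286 near the ends and 2.67% ± 0.105 in the rest, and the telomere-directed strand 2.67% ± 0.212 and 2.68% ± 0.0722. The difference on the centromere-directed strand was -0.561 ± 0.285 percentage points (two-sided exact sign-flip permutation test over 16 chromosomes, adjusted p = 0.00011), with 15 chromosomes lower and 1 higher, by 0.0416 points. On the telomere-directed strand it was -0.00935 ± 0.225 points, with 6 chromosomes higher (adjusted p = 0.871 by the same permutation test), a spread that leaves room for a difference of either sign. For both strands together it was -0.285 ± 0.195 points (adjusted p = 0.000196 by the permutation test), but it was -0.106 points without the annotated telomeric regions (adjusted p = 0.0428), and with positions chosen by the study's written criteria it was -0.0644 points and the call was lost (adjusted p = 0.0695, both by the permutation test). The centromere-directed difference was -0.172 points under those criteria, which select fewer positions, and -0.300 points without the telomeric regions, and passed in both (adjusted p = 0.000392 and 0.00129 by the permutation test).

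Compared directly, the telomere-directed strand exceeded the centromere-directed strand by 0.565 ± 0.322 points in the end zones, with the 16 chromosomes between 0.215 and 1.24 points and all above 0 (exact permutation p = 3.05e-05, the smallest this test can give, adjusted p = 6.87e-05). Subtracting the same difference in the rest left 0.551 ± 0.334 points, again positive on all 16 chromosomes. Under the written criteria the difference between strands was 0.217 points (adjusted p = 0.000275, permutation test). The base composition moved with the strand. As made up 30.9% of the telomere-directed strand and 29.9% of the centromere-directed strand near the ends, against 30.9% and 30.7% in the rest. So did the direction of the genes, since 32.5% of the telomere-directed strand was coding sequence on its sense side, against 16.1% of the centromere-directed strand, 38.0% and 35.4% in the rest. Their part in the difference was not tested.

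Going in from the end in 1 kb steps, the centromere-directed strand was on average lowest in the second kilobase and then rose step by step. This average joins unlike ends. From the first kilobase to the stretch from 1 to 6 kb, the mean fell from 2.31% to 0.998% at ends with Y′. It rose from 0.540% to 2.15% at ends without Y′. Over all ends the masked share of this strand was 1.48% ± 0.832 in the first kilobase, 1.09% ± 0.571 in the second and 1.38% ± 0.807 in the third. It was 1.59% ± 0.893 in the fourth, 1.76% ± 0.663 in the fifth and 1.88% ± 0.634 in the sixth. In the second kilobase 31 of 32 ends were below the rest of their chromosome, the lowest at 0.4%, the median at 0.75% and the highest at 3.1%. These 6 steps passed the adjusted threshold of 0.05 (permutation test, adjusted over 200 steps and orientations), all as lower than the rest and with adjusted p-values between 0.0061 and 0.0279. Of the 80 steps between 20 and 100 kb, 2 centromere-directed steps passed as lower, which is 2.5%. The shares of the seventh and eighth kilobase, 1.91% and 1.93%, did not pass (adjusted p = 0.105 for both by the permutation test), and the share then reached 2.50% at 8 to 9 kb and 2.87% at 9 to 10 kb. Together with the 1 telomere-directed step below, 7 steps passed, against 2 when positions were limited to unique sequence and 1 under the written criteria.

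The telomere-directed strand showed no such slope. Its first 6 steps had masked shares of 1.97% ± 1.11, 2.63% ± 1.16, 3.39% ± 1.00, 2.02% ± 1.40, 2.46% ± 0.727 and 3.16% ± 1.30, on either side of the rest at 2.68%. Of its 20 steps, 1 passed as lower, at 15 to 16 kb with 1.92% ± 0.765 (adjusted p = 0.0475 by the permutation test), beside 0 of 80 steps (0%) farther in. No step of either strand passed as higher. At an unadjusted p under 0.05, 10 centromere-directed steps were lower, 2 telomere-directed steps were lower and 1 was higher, of 20 each. Of the 80 steps of each strand farther in, 8 centromere-directed steps (10%) were lower by that measure and 2 higher, 2 telomere-directed steps (2.5%) were lower and 1 (1.25%) was higher. At the border of the zone, the last step inside had 3.16% and 2.31% on the telomere-directed and centromere-directed strand, and the first step outside 2.54% and 2.18%. Over both strands the outer 5 kb had 1.98% ± 0.256 and the inner 15 kb 2.53% ± 0.236, lower on all 16 chromosomes (difference -0.551 ± 0.331 points, adjusted p = 6.87e-05 by the permutation test). In unique sequence alone this difference was -0.421 points and no longer passed (adjusted p = 0.0964, permutation test), and without the annotated telomeric regions it was 0.929 ± 3.99 points over the 13 chromosomes with such positions left.

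**Figure D1:**
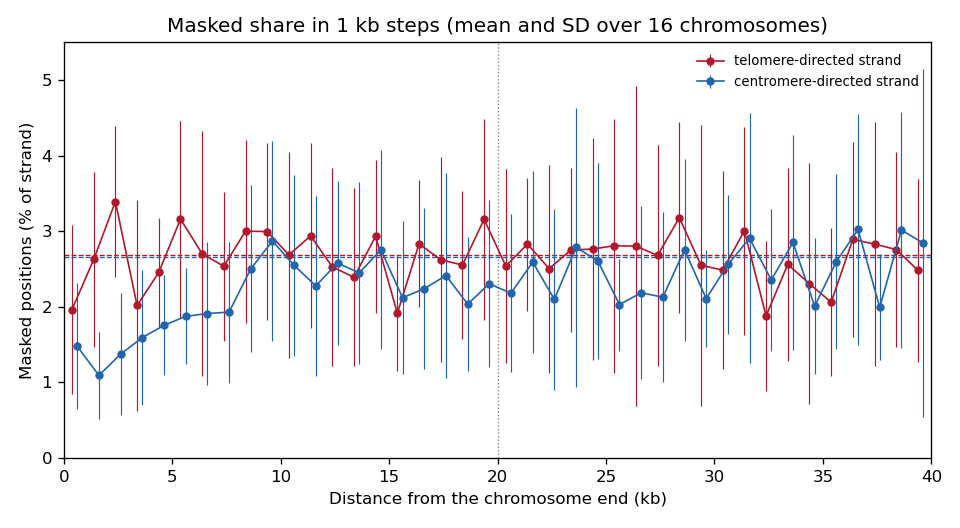
Masked share of the telomere-directed (red) and centromere-directed (blue) strand against distance from the chromosome end in kb. Points are means and bars the SD over 16 chromosomes, dashed lines are the rest, and the dotted line is the 20 kb border. The blue points of the first 6 kb lie between 1.09% and 1.88%, below the rest at 2.67%.

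The composition differed along the same distance. From 0 to 8 kb the telomere-directed strand had 2.61% masked, 30.4% A and 41.7% coding sense sequence, and the centromere-directed strand 1.63% masked, 28.9% A and 9.12% coding sense sequence. Of the coding sequences that lie wholly in these 8 kb, 53 read toward the telomere and 27 toward the centromere. From 8 to 20 kb the shares were 2.71% and 2.43%. Windows of 1 kb with 30 to 35% A had a mean masked share of 3.07% (403 windows) on the telomere-directed and 2.53% (320 windows) on the centromere-directed strand near the ends, and of 2.97% and 2.98% in the rest. In windows with 25 to 30% A the 4 means were 1.56%, 1.66%, 1.61% and 1.61%. With 35 to 40% A they were 4.24%, 3.99%, 5.04% and 4.99%, and below 25% A 0.776%, 0.586%, 0.855% and 0.868%. Whether a strand lay below the rest thus varied with the class. These are descriptions of windows that share chromosomes and carry no test.

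No 1 kb window near an end reached 10% masked, among 1280 windows of both strands. In the rest 175 of 22836 windows did, or 0.766%. The most masked windows near an end were telomere-directed, with 9.4% at IIIL from 18 to 19 kb and 8.7% at VIR from 1 to 2 kb. At the other extreme, 5 telomere-directed (0.78%) and 6 centromere-directed (0.94%) windows of 640 each had no masked position, against 0.587% of windows in the rest. These are few windows, and the difference was not tested. The empty centromere-directed windows included the third kilobase of IIL, IXL and XL, which lies in the Y′ element, and the first kilobase of IIIL and XIVR.

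Single ends differed widely, though 29 of 32 had more masked positions on the telomere-directed strand. Their masked share over both strands ran from 1.98% to 2.88% with a median of 2.35%. The highest were IR with 2.88%, IIIL with 2.80% and XIL and XVR with 2.72% each, and the lowest VR and XIIL with 1.98% each and IIL with 2.02%. The telomere-directed strand ran from 2.05% at VL to 3.70% at IIIL and was below its rest at 16 of 32 ends. The centromere-directed strand ran from 1.21% at IIL to 2.89% at XIIIR and was below its rest at 30 ends, all but IR and XIIIR. The ends IR, VL and XIIIR had the opposite order of strands, by -0.02, -0.055 and -0.52 points. The widest gaps in the usual order were 1.81 points at IIIL and 1.64 points at IIL.

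**Figure D2:**
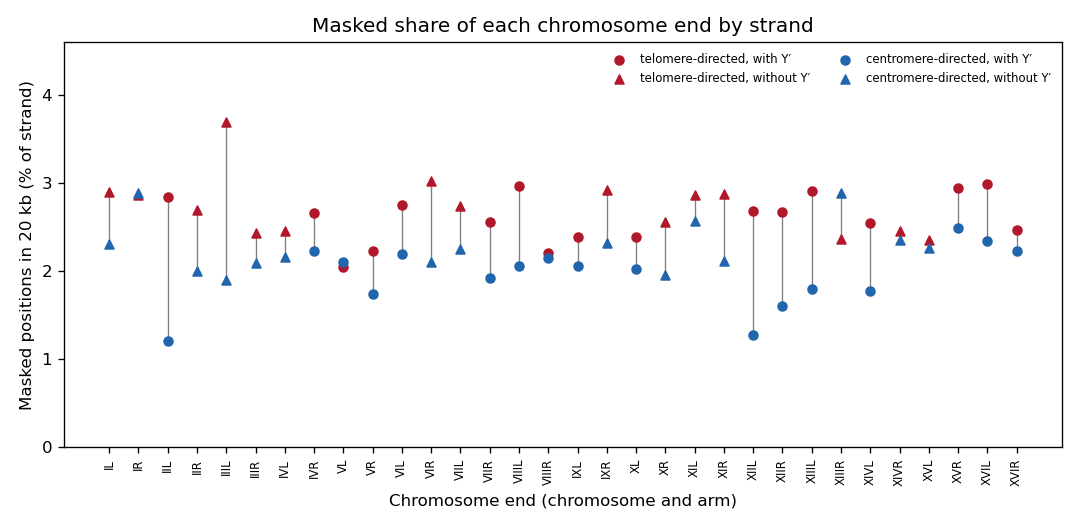
Masked share of the outer 20 kb of each chromosome end, by strand. Red is telomere-directed and blue centromere-directed, circles are the 17 ends with a Y′ element and triangles the 15 without, and a line joins the strands of an end. Red lies above blue at 29 of 32 ends.

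Ends with and without a Y′ element differed most in their first kilobases. At ends with Y′ the first kilobase had 3.43% ± 0.528 (SD over 17 ends) masked on the telomere-directed strand and 2.31% ± 0.809 on the centromere-directed strand. At ends without Y′ the same kilobase had 0.307% ± 0.228 and 0.540% ± 0.981 (SD over 15 ends). The highest centromere-directed value without Y′ was 4.0% at VIR, and the median 0.3%. The telomere-directed values of the groups did not overlap, the lowest end with Y′ being at 2.5% and the highest without at 0.8%. From 1 to 6 kb the centromere-directed strand was at 0.998% ± 0.114 with Y′ and at 2.15% ± 0.424 without, again without overlap, at up to 1.34% and from 1.48%. There the A share of that strand was 26.0% with Y′ and 30.6% without. The telomere-directed strand had 2.45% ± 0.185 and 3.05% ± 0.709 over this stretch, with overlap. From 6 to 20 kb the groups overlapped on both strands. There the telomere-directed strand had 2.60% with Y′ and 2.82% without, and the centromere-directed strand 2.27% and 2.45%. No test was run between these groups of ends, since the Y′ copies share their sequence. Distances were counted from the last base of the assembly, which did not lie in a terminal repeat tract at all Y′ ends.

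The lower centromere-directed share was also found without the Y′ ends. With the 15 ends without Y′, on 12 chromosomes, the centromere-directed strand was 0.402 ± 0.297 points below the rest, a difference of -0.402 with adjusted p = 0.00299 by the permutation test. The telomere-directed strand exceeded it by 0.430 ± 0.421 points (adjusted p = 0.00769 by the permutation test, 11 of 12 chromosomes). This comparison was chosen after the data had been seen.

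**Figure D3:**
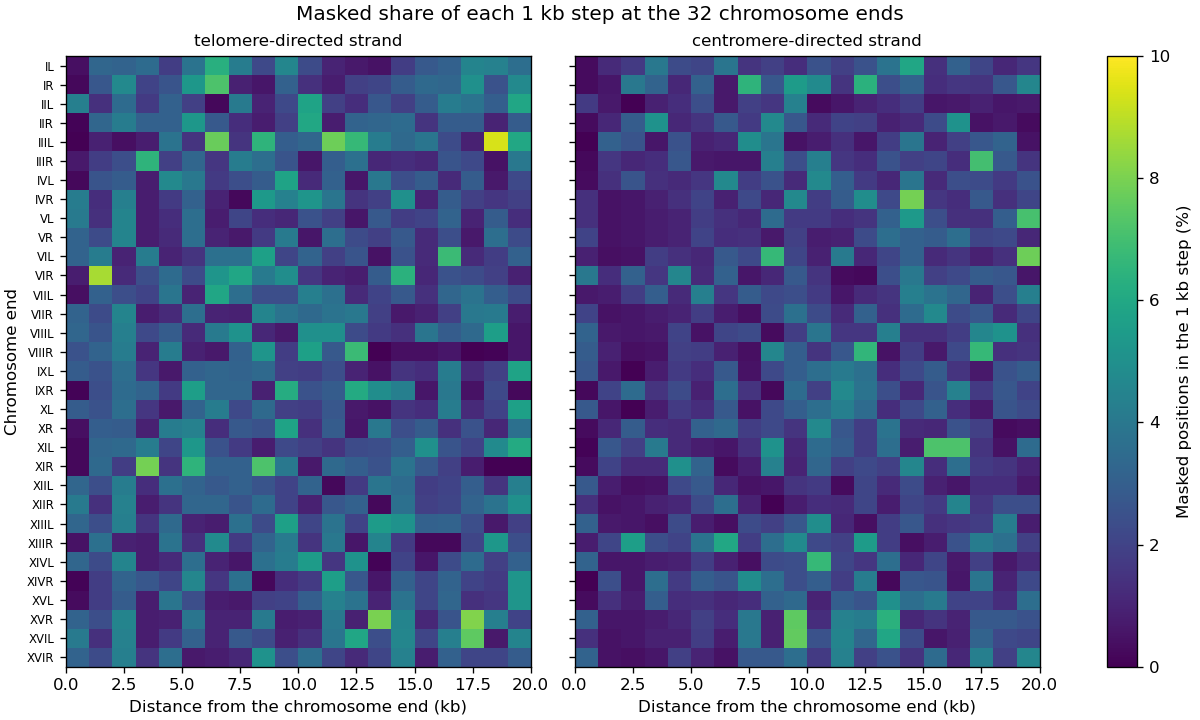
Masked share of each 1 kb step (color, 0 to 10%) at the 32 chromosome ends (rows) for the telomere-directed (left) and centromere-directed (right) strand. The first kilobase is dark on both strands at most ends without Y′, and ends with Y′ share a dark band from 1 to 6 kb on the centromere-directed strand, where their mean was 0.998%.

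The terminal repeat tract held no masked position, but its definition left little room for one. An uninterrupted terminal tract of Cs with single As, at least 10 bp long on the centromere-directed strand, was present in the assembly at 22 of 32 ends. It was up to 363 bp long (IIIL) and held 0 masked positions on both strands over 2346 bp in sum. Since only single As among Cs were allowed, the inside of the tract offers no stretch of As on either strand. The 0 was thus largely set by the definition and is no separate result about telomeric repeats. The outermost 60 bases of IL are shown because they illustrate the tract, in which no A has an A beside it.
IL, chrI:1-60, plus strand, centromere-directed: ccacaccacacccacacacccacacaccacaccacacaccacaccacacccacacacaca
IL, chrI:1-60, minus strand, telomere-directed: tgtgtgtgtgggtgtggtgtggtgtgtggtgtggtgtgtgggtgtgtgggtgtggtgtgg

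The other 10 ends, all with Y′, had no such tract at the last base of the assembly. The first masked position lay at a median of 44 bp on the telomere-directed and 111 bp on the centromere-directed strand at the 17 Y′ ends, and at 717 bp and 769 bp at the 15 others. These distances start at the last base of the assembly, which lay in no such tract at 10 of the 17 Y′ ends. The groups are therefore not aligned to a common element. Examples are the outermost telomere-directed run of IIL, a single position, and the outermost centromere-directed run of XIVL, of 18 bp, which ends in an A tract. For an end without Y′, the outermost run of each strand of IIIL lay more than 1 kb in. IIIL is an extreme case, since its 1145 bp on the telomere-directed strand was the largest such distance of all 32 ends.
IIL, chrII:44-44, minus strand, telomere-directed: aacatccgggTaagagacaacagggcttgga
XIVL, chrXIV:10-27, plus strand, centromere-directed: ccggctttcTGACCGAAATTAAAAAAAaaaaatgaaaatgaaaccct
IIIL, chrIII:1145-1145, minus strand, telomere-directed: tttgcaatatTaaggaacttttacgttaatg
IIIL, chrIII:1074-1074, plus strand, centromere-directed: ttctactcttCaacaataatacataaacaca

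The annotated telomeric regions, which comprise the repeats, the X element and any Y′ element, ranged from 431 to 13897 bp. In the 17 with Y′, 2.47% of the telomere-directed and 1.20% of the centromere-directed strand was masked, with A shares of 29.3% and 26.9%. In the 15 without Y′, 21 and 41 of 12652 positions of each strand were masked, or 0.166% and 0.324%, although As made up 32.1% of the centromere-directed strand and 24.0% of the other. None of these 15 regions was free of masked positions on both strands, and none had more than 5 on the telomere-directed or 7 on the centromere-directed strand. These regions thus held few masked positions on either strand, also on the strand with 32.1% A. Terminal tracts, where the lack of masking was largely set by definition, made up 1839 bp of them. The X element was not measured apart from the tracts.

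Among other elements, the 40 origins of replication in the end zones had 2.97% masked on the telomere-directed and 2.30% on the centromere-directed strand, against 5.41% and 6.17% for the 312 in the rest. Origins contain an A/T-rich consensus, and their A shares were 32.4% and 32.7% near the ends and 33.7% and 34.8% in the rest. The 40 covered 20281 positions of each strand and the 312 covered 82966. The annotated intervals near the ends were thus longer on average, and the shares are not over like lengths. The 18 long terminal repeats near the ends had 0.949% and 1.92%, those of the rest 1.27% and 1.18%. The silent mating cassette HML, 11146 bp from the left end of chromosome III, had 4.81% on the telomere-directed and 1.86% on the centromere-directed strand. Its counterpart HMR, on the right arm, began 21587 bp from the end and so fell outside the zone.

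Split by kind of position, masking was lower near the ends on the sense side of coding sequence and outside coding sequence, and higher on the antisense side. Only the sense side of a gene bears on the removal of its own transcript ends. On the sense side 2.20% ± 0.255 of positions were masked near the ends and 3.03% ± 0.208 in the rest, lower on all 16 chromosomes (difference -0.830 ± 0.287 points, adjusted p = 6.87e-05 by the permutation test). Without coding sequence the shares were 3.05% ± 0.306 and 4.46% ± 0.146, also lower on all 16 (difference -1.42 ± 0.308 points, adjusted p = 6.87e-05 by the permutation test). On the antisense side they were 1.23% ± 0.285 and 0.998% ± 0.0574, higher on 13 of 16 (difference 0.231 ± 0.309 points, adjusted p = 0.00299 by the permutation test). The written criteria gave smaller differences that passed in each case, -0.358 points for the sense side, -0.783 points without coding sequence and 0.144 points for the antisense side. The antisense call was lost when every gene counted equally (difference 0.179 points, adjusted p = 0.0803 by the permutation test).

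The sense side had 2.27% masked on telomere-directed and 2.13% on centromere-directed strands of the end zones, and 3.10% and 3.12% in the rest. Outside coding sequence the values were 3.33% and 2.74%, against 4.42% and 4.45%. In both kinds of position the telomere-directed strand was thus also below the rest. On the antisense side it was above the rest, with 1.37% against 0.997%. The strands of the end zones lay farther apart outside coding sequence than within it, a contrast that was not tested. The end zones also held more of the sequence without genes, 51.5% of each strand against 26.4% in the rest, and this sequence had the highest masked share in both places.

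**Figure D4:**
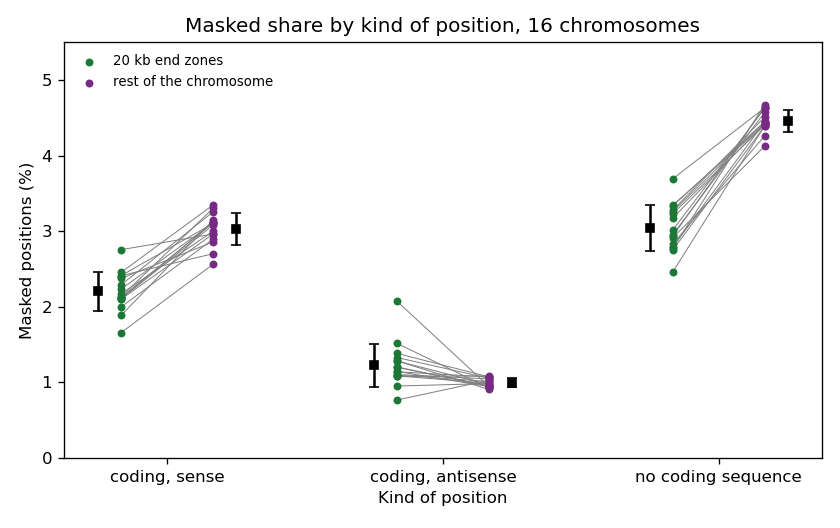
Masked share of 3 kinds of position in the end zones (green) and the rest (purple) of the 16 chromosomes. Dots are chromosomes joined by lines, and black squares with bars are the mean and SD. The sense side and the sequence without genes are lower in the end zones on all 16 chromosomes, and the antisense side is higher on 13.

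Of the end-zone positions, 42.7% lay in sequence repeated elsewhere in the nuclear genome, judged by 50-base windows, against 3.79% in the rest. Repeated sequence had 2.18% ± 0.227 masked and unique sequence of the same zones 2.53% ± 0.204, lower on 15 of 16 chromosomes (difference -0.350 ± 0.204 points, adjusted p = 0.000137 by the permutation test). Repeated windows have copies elsewhere by definition, often at another end, so the chromosomes are not independent units here. The count of chromosomes and the p-value partly reflect copies of the same sequence.

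Copies were long in places. The ends IXL and XL, of which 97.5% and 98.4% was repeated sequence, held 325 members each, with 478 masked telomere-directed positions at both and 411 and 406 masked centromere-directed positions. VIR, in contrast, had no repeated 50-base window in its outer 20 kb. XVR and XVIL shared a telomere-directed run of 40 bp between the fluoride exporter gene FEX1 or FEX2 and the HSP33 or HSP32 gene, shown because its context was identical at both ends.
XVR, chrXV:1078194-1078233, plus strand: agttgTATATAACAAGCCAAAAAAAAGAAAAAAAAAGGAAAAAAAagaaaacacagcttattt
XVIL, chrXVI:12911-12950, minus strand: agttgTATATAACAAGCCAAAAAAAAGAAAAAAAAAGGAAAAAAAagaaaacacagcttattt

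At the level of genes, 231 of 6002 protein-coding sequences lay wholly within 20 kb of an end and 15 crossed the border. Their median sense masked share was 2.05%, against 2.65% for the 5756 genes of the rest, and their median A share 29.4% against 32.8%. Of the 231, 130 read toward the telomere, with a median of 2.22%, and 101 toward the centromere, with a median of 1.98%. In 14 no sense position was masked, and in 1, YBR298C-A of 222 bp, more than 10% was (12.6%). Of the genes of the rest, 68 (1.18%) had no masked sense position and 104 (1.81%) had more than 10%.

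The 5 coding sequences of at least 300 bp with the highest sense share had As in up to 41.2% of their bases. IRC4, at IVR, had 8.52% masked. HMLALPHA2, a gene of the silent HML cassette for a homeodomain mating type protein, had 8.21%, and MIX23, a gene of a mitochondrial protein at IIL, 7.95%. YBL112C, in the Y′ element of IIL, had 7.86% and YFL065C of VIL 4.53%, as did YPR203W of XVIR. On the antisense side these genes had between 0% and 1.29% masked.

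**Figure D5:**
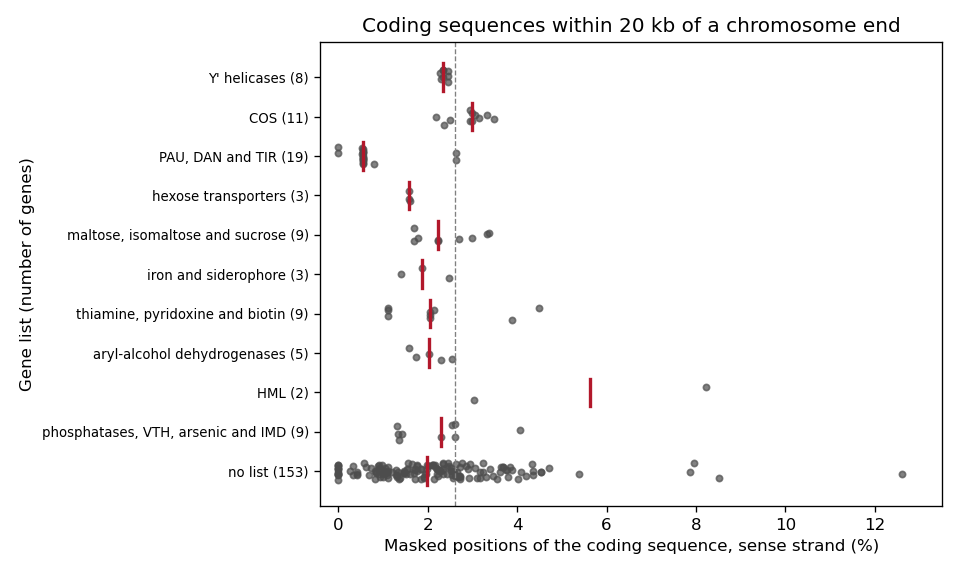
Sense masked share of the 231 coding sequences within 20 kb of an end, by gene list (number of genes in brackets). Dots are genes, red bars are list medians, and the dashed line is the median of all 6002 nuclear genes, 2.61%. PAU genes cluster at 0.551% and Y′ helicases at 2.34%.

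Of 11 gene lists, 10 had members in the zones, with 78 genes in all, and the flocculin genes had none. The 8 YRF1 genes, which encode the Y′ helicase and all read toward the telomere, were nearly alike, from 2.28% in YRF1-2 to 2.46% in YRF1-3, YRF1-6 and YRF1-7, with a median of 2.34%. Their antisense median was 0.872%. All 8 are mostly repeated sequence, so their values are not independent of each other.

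The 19 PAU genes, a family of small serine-poor proteins induced without oxygen, were the least masked list. All read toward the telomere, and their median sense share was 0.551%, with an A share of 25.9%. In 14 of them exactly 2 positions were masked, and in PAU3 and PAU9 none. PAU21 and PAU22, the highest at 2.63%, had 13, of which 9 formed 1 run at 97 bp into the coding sequence. Both are annotated at 495 bp, against 363 bp for PAU24, so these shares are not over like lengths. The masked pair lay before the same codons in 17 genes, shown for PAU24, where 8 genes had an identical context.
PAU24, chrII:809140-809141, plus strand: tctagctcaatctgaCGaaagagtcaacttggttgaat

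The 11 COS genes, whose membrane proteins act in the sorting of other membrane proteins to the vacuole, read toward the centromere in 10 cases and were the most masked of the lists with more than 2 genes. Their sense median was 2.98%, from 2.19% in COS12 to 3.49% in COS1. Their antisense median was 2.69%, and in 7 of 11 the sense side was higher. Over all 231 genes of the zones the antisense median was 0.872%.

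Among the nutrient genes, the hexose transporter genes HXT15 and HXT16 (1.58%) and HXT17 (1.59%) had more masking on the antisense side, with a median of 2.17%, and an A share of 25.8%. The 9 maltose and isomaltose genes had a median of 2.22%, lowest in the isomaltase genes IMA3 and IMA4 (1.69% each) and highest in the alpha-glucoside permease gene MPH3 (3.37%). The 3 iron genes ran from 1.40% in the siderophore transporter gene ARN2 to 2.47% in the iron transporter gene FET4. The list of THI, SNO and SNZ genes, for thiamine and pyridoxine synthesis apart from SNO4, which is annotated as a methylglyoxalase family gene, had 9 members and a median of 2.05%, lowest in SNZ2 and SNZ3 (1.11% each) and highest in SNO2 (4.48%). SNO2 and SNZ2, and likewise SNO3 (3.89%) and SNZ3, encode paired subunits of vitamin B6 synthesis and lie side by side.

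The 5 AAD genes for aryl-alcohol dehydrogenases ran from 1.59% in AAD14 to 2.55% in AAD15, with a median of 2.02%. Among the 9 phosphate, arsenic, VTH and IMD genes the median was 2.29%, from 1.32% in ARR3, the arsenite exporter gene, to 4.07% in ARR1, the regulator gene of the same cluster. HMLALPHA1, the activator gene beside HMLALPHA2, had 3.03%. Of the 10 lists, COS and HML had medians above the 2.61% of all nuclear genes. The lists were described by medians and ranges and were not tested.

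The 6 bases after a masked position held neither C nor T for 73.8% of telomere-directed, 77.1% of centromere-directed and 74.7% of the rest's masked positions, and were all A for 9.81%, 12.5% and 9.34%. In the end zones, 14676 positions met the criteria as written in the study's methods, and all of them were masked, yet they made up 48.0% of the 30581 masked positions. With the thresholds read as at least 4 As in 6 bases without C or T, or at least 12 As in 18, 29833 positions were selected, all masked, and 748 masked positions met neither.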

How the data were processed

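The authors deposited the masked positions as runs of sacCer3 positions on 1 strand (start, end, strand), derived from the genome sequence and removed from the 3′ end tracks with bedtools. No score, read depth or sample value comes with them, so no interval or floor was given. The submitters' processing notes name STAR, SAMtools 1.3 and HTSeq 0.6.0 for the libraries, which were not analysed here. The written criteria are more than 4 As and neither C nor T in the 6 bp downstream, or more than 12 As in the 18 bp downstream.

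Runs starting within 20 kb of a nuclear chromosome end were taken, with coding sequences and elements of the R64 annotation. Masked shares are masked positions per position of a strand, with both ends of a chromosome pooled. Differences were tested by a two-sided exact sign-flip permutation test over 16 chromosomes, and p-values were adjusted by the Benjamini-Hochberg method over 9 main tests, or over 200 steps. Repeated sequence is any 50-base window found more than once in the nuclear genome on either strand. The functions were tested on simulated data. Python 3.11.15, numpy 2.4.6, scipy 1.17.1 and matplotlib 3.10.9 were used.

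Named were the 3 highest and 3 lowest ends with ties, the 5 genes of at least 300 bp with the highest share, the highest and lowest members of each list, the 5 longest runs and the outermost runs. YBR298C-A, the ends with the opposite order of strands, the most and least masked windows and the shared runs and ends were picked on their values instead. The members and lists were chosen with earlier results of these data known. The definition of the terminal tract was narrowed to exclude runs of A after a first look at its values.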

Additional observations from a re-analysis of the deposited data

How the results depend on the processing

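Of 76 alternative values, 61 kept their direction and side of the threshold. No paired analysis was possible because the list holds no sample values to pair by replicate number, while the tests compare values within each chromosome. With positions selected by the criteria as written, the difference over both strands shrank to -0.0644 points (adjusted p = 0.0695, permutation test) and 1 step of 40 passed instead of 7. In unique sequence alone 2 steps passed, and the outer 5 kb were lower by -0.421 points (adjusted p = 0.0964, permutation test), with fewer positions left. Without adjustment 13 steps passed. Without the annotated telomeric regions the outer 5 kb were 0.929 ± 3.99 points higher (13 chromosomes, p = 0.872, permutation test). With every gene counted equally the antisense difference was 0.179 points.

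The telomere-directed difference, never called, changed sign to 0.00559 points with a 10 kb and 0.0163 with a 30 kb zone, 0.0430 with the criteria as written, 0.0889 without telomeric regions, 0.0278 without the outermost 1 kb, 0.0795 in unique sequence, 0.0403 for left ends and 0.0244 for ends without Y′. The causes were not tested. The last setting, the thresholds read as at least 4 and 12 As, and the subtraction of the strand difference in the rest were chosen after seeing the data. The centromere-directed difference, between -0.172 and -0.818 points, and the difference between strands, between 0.217 and 0.848 points, passed under all their alternatives, and their smallest values came with the criteria as written. Repeated against unique sequence differed by -0.222 points without telomeric regions, and the outer 5 kb from the inner 15 kb by -0.367 points with the criteria as written.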
